A study of Mus musculus with 8 samples.

Results

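The genes described here make, sense, store and release cholesterol, and they were read in Kupffer cells, which are the macrophages that live in liver sinusoids. There are 29 of them among the 55414 genes of the deposited count table, chosen by name for their known roles in cholesterol handling, and all 29 were found. The choice was made with earlier results of these data known. They comprise 7 enzymes of the mevalonate segment of synthesis, 11 enzymes that turn its product into squalene and then into cholesterol, 5 sterol regulators and 6 genes of lysosomal export, ester handling and oxysterol synthesis. Kupffer cells were isolated by flow sorting 2 h after caecal ligation and puncture (CLP) or after sham surgery (Sham), and all mice were wild type (WT C57BL/6J). CLP lets gut bacteria into the abdomen and serves as a model of sepsis. Each group held 4 libraries of total RNA, and the labels give neither the age of the mice nor the gate of the sort. Whether the libraries come from different mice is not stated. The p-values therefore reflect the spread among these libraries, part of which may be technical.

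Cells build cholesterol from acetyl-CoA through mevalonate, isoprenoids, squalene and lanosterol. The transcription factor SREBP2 (gene Srebf2) switches these enzymes on. It is made as a membrane protein of the endoplasmic reticulum. When sterols are scarce, the escort protein Scap carries it to the Golgi, where proteases release its active part, and when sterols are plentiful Insig1 and Insig2 hold Scap back. Insig1 is itself a target gene of SREBPs. Macrophages also take up cholesterol with lipoproteins, dying cells and aged red cells. In the lysosome the acid lipase Lipa frees it from its esters and Npc2 and Npc1 pass it out of the organelle. Soat1 then esterifies surplus cholesterol for storage in droplets, and Nceh1 hydrolyses such esters again.

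Total counts per library lay between 23311897 and 28724875 and did not differ between groups beyond their spread (exact permutation test, two-sided, p = 0.743, where the smallest possible p is 0.0286). The 8 Kupffer cell markers read summed to 28010 to 36340 CPM (counts scaled to a common library size) in CLP libraries and to 21300 to 27930 CPM in Sham libraries. They include Clec4f, Vsig4 and Cd5l but also broader macrophage genes such as Csf1r and Adgre1. The sum alone therefore does not settle identity. One CLP library, replicate 1, was less like its group: across genes its log2 CPM had r = 0.968 to 0.972 with the other CLP libraries, which had r = 0.986 to 0.987 with each other. CPM values and changes are on the scale of TMM, a trimmed-mean scaling that sets the bulk of genes level between groups. The median log2 fold change of all 14655 genes tested was -0.04. Scaling by total counts alone moved it to -0.59 and turned 3644 higher and 4319 lower calls into 1715 and 8292. Changes under about 0.5 on the log2 scale therefore depend on the scaling. In bulk libraries such as these, fewer cells of a type and less RNA per cell cannot be told apart.

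All 29 genes passed the filter on low counts, but Ch25h passed it only through its CLP libraries and so had to differ. It is left out of the counts that follow. By edgeR's quasi-likelihood test at an adjusted p of 0.05, 9 of the other 28 were higher and 5 lower in CLP. This is 14 of the 28, against 54.3% of all genes tested (24.9% higher and 29.5% lower), so the count as a whole was near the background. Among the 18 enzymes of synthesis 3 rose and 2 fell, and the median over all 18 was 0.03 on the log2 scale. Among the 10 regulators and genes of export and esters 6 rose and 3 fell, with a median of 0.41. These counts rest on TMM. With total-count scaling the enzymes had 0 higher and 8 lower with a median of -0.52, and the 10 others 3 higher and 3 lower with a median of -0.14, against 11.7% of all genes higher and 56.6% lower. The difference between the roles was not tested. The libraries of the groups did not overlap for 9 of the 28 genes that were higher and 4 that were lower in CLP, against 22.1% and 27.3% of all genes tested.

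**Figure D1:**
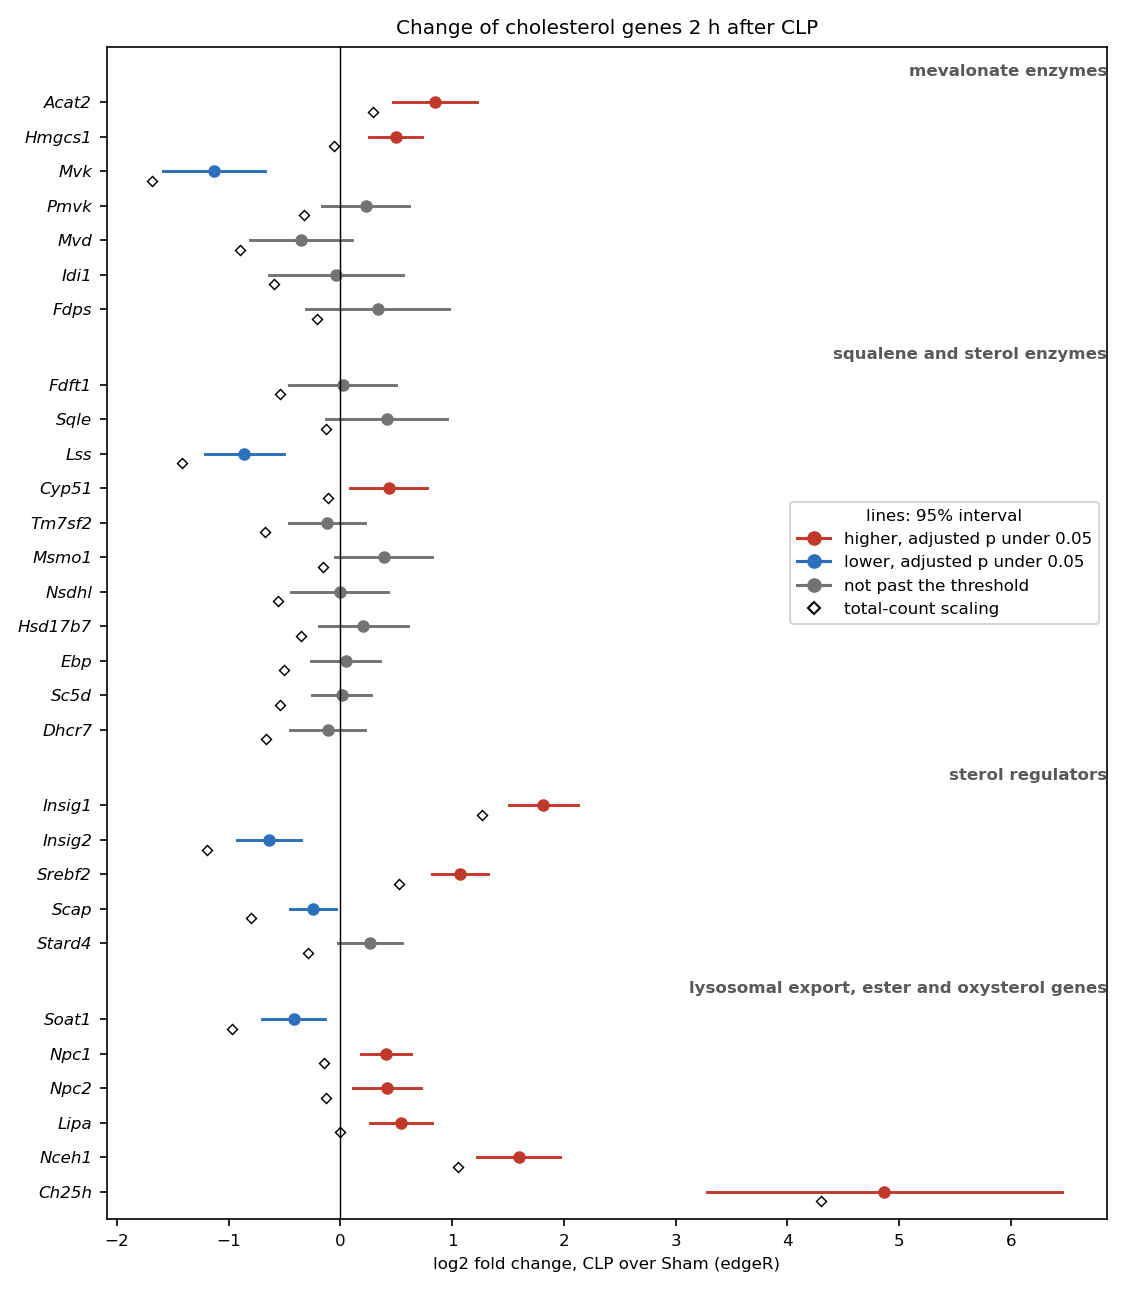
The log2 fold change (CLP over Sham, edgeR) of each of the 29 genes on the horizontal axis, with its 95% interval, grouped by role and in pathway order for the enzymes. Red marks the 10 genes past the threshold as higher, Ch25h among them, blue the 5 called lower and grey the 14 not past the threshold. Ch25h passed the filter only through its CLP libraries, so its color and interval are not a test. Open diamonds give the value with total-count scaling. Insig1, Srebf2, Nceh1, Ch25h and Acat2 lie right of 0 on both scales, though Acat2 did not pass the threshold with total-count scaling.

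Of the 5 sterol regulators, Insig1 and Srebf2 rose, and Insig2 and Scap fell. Insig1 (ENSMUSG00000045294), which retains Scap in the endoplasmic reticulum, stood at 103, 120, 118 and 136 CPM in CLP replicates 1 to 4, against 38.2, 38.7, 28.03 and 30.5 CPM in Sham replicates 1 to 4. Every CLP library lay far above every Sham library, and the rise was 3.52-fold, or 1.82 ± 0.14 on the log2 scale (± SE here and for other log2 fold changes, edgeR adjusted p = 5.11e-06). Its paralogue Insig2 (ENSMUSG00000003721), which acts in the same way on Scap, was at 17.7, 18.9, 15.8 and 17.5 CPM after CLP, against 24.4, 30.3, 22.9 and 31.4 CPM after Sham. All 4 CLP values were under the lowest Sham value, with a log2 fold change of -0.64 ± 0.13 (edgeR adjusted p = 0.00192). The number of Insig1 reads per Insig2 read, a ratio that no scaling of libraries can alter, was 5.82, 6.38, 7.44 and 7.77 in CLP replicates 1 to 4, and 1.56, 1.28, 1.23 and 0.972 in Sham replicates 1 to 4. Insig1 thus made up most Insig reads after CLP, while after sham surgery the ratio was nearer to 1.

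Srebf2 (ENSMUSG00000022463) also rose, with 153, 150, 174 and 186 CPM after CLP, against 80.1, 87.5, 76.2 and 71.2 CPM after Sham. The groups did not overlap, and the log2 fold change was 1.07 ± 0.11 (edgeR adjusted p = 2.82e-05), or 2.10-fold. With total-count scaling it was smaller but still past the threshold (log2 fold change 0.52, edgeR adjusted p = 0.00164). Scap (ENSMUSG00000032485), the escort of SREBP2, moved the other way by a small amount, at 53.8, 46.7, 45.1 and 47.7 CPM after CLP and 57.0, 60.2, 57.1 and 55.1 CPM after Sham. Its log2 fold change of -0.25 ± 0.09 was only just past the threshold (edgeR adjusted p = 0.0456). The Scap call was lost with DESeq2 (adjusted p = 0.0979), with no count filter (edgeR adjusted p = 0.0755), with a GC correction (log2 fold change -0.01, edgeR adjusted p = 0.927, where 26.0% of all genes were lower and 29.1% higher) and when any library other than CLP replicate 1 was left out (edgeR adjusted p = 0.0749 to 0.156). There were 2.85, 3.22, 3.86 and 3.89 Srebf2 reads per Scap read in CLP libraries, and 1.41, 1.45, 1.33 and 1.29 in Sham libraries. Stard4 (ENSMUSG00000024378), a cytosolic sterol carrier and known SREBP2 target, ranged from 15.3 to 20.5 CPM after CLP and from 14.3 to 17.6 CPM after Sham. It did not pass (log2 fold change 0.27, 95% interval -0.02 to 0.55), but it did with DESeq2 (adjusted p = 0.034) and without CLP replicate 2 (0.36, edgeR adjusted p = 0.0349).

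**Figure D2:**
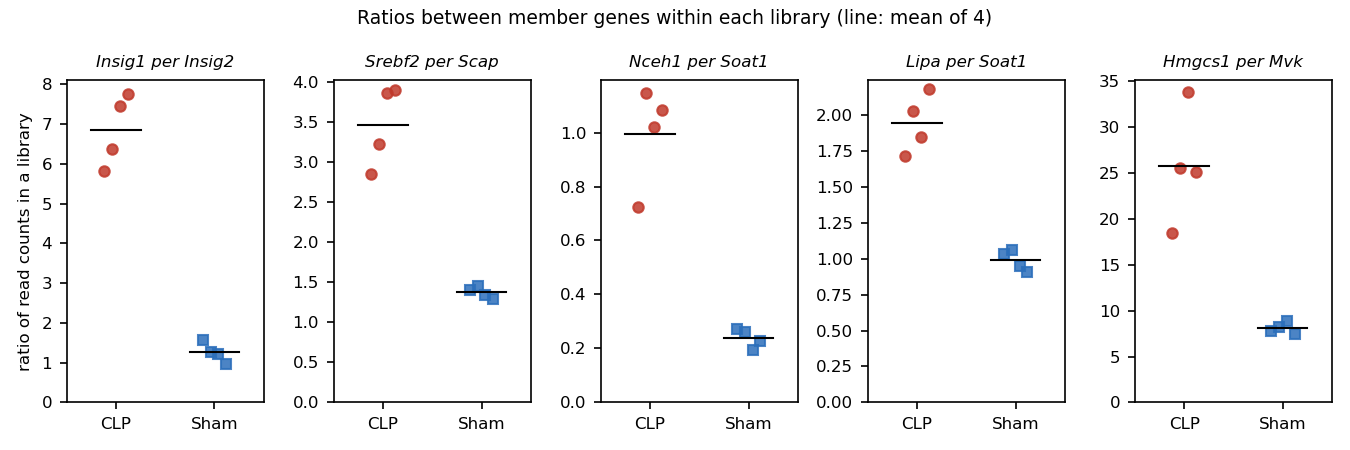
Ratios of read counts between pairs of the genes within each library, with CLP left of Sham in each panel, points for the 4 libraries of a group and a line at their mean. In all 5 panels every CLP library lies above every Sham library, for Insig1 per Insig2 at 5.82 to 7.77 against 0.972 to 1.56. Each panel divides a gene called higher by a gene called lower in these same data. The direction therefore follows from the choice of pairs, and the panels are a description only.

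The start region of Insig1 is shown because it had the largest rise among the regulators. The stretch is the 150 bases upstream of the RefSeq gene on GRCm38.p6, at chr5:28071262-28071411, read 5′ to 3′ on its plus strand. Capitals mark the words CCAAT (the NF-Y box) and CACGTG (an E-box) on either strand, and the sterol response element word TCACNCCAC was also searched.
Insig1: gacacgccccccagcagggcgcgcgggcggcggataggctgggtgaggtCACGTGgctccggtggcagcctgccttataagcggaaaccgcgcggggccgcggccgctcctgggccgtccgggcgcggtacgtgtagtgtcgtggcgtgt
It holds 1 CACGTG. It holds neither CCAAT nor TCACNCCAC, which says only that these letters are not in this stretch. The shorter word CACNCCA, which lies inside TCACNCCAC, is present on the other strand, 8 to 2 bases before the start. It is not in capitals here and occurs in the windows of 20.6% of all genes. A CCAAT lies further upstream, 216 to 212 bases before the start, in the longer window that was counted for all genes.

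Apart from Ch25h, the genes of lysosomal export and ester handling were more abundant per length than any enzyme of synthesis in both groups. Per kilobase of merged exon in GENCODE M21, Npc2, Lipa, Nceh1 and Soat1 averaged 148, 117, 76.3 and 42.0 CPM in CLP libraries and 110, 80.2, 25.2 and 56.1 CPM in Sham libraries. The highest enzymes of synthesis on the same scale were Hmgcs1, at 12.9 CPM after CLP and 9.17 CPM after Sham, and Ebp, at 11.1 CPM after CLP and 10.7 CPM after Sham. Without Ch25h, 4 of the 5 genes of this role passed the threshold as higher and 1 as lower, against 54.3% of all genes called in either direction. With total-count scaling 1 was higher and 1 lower, against 11.7% and 56.6% of all genes.

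**Figure D3:**
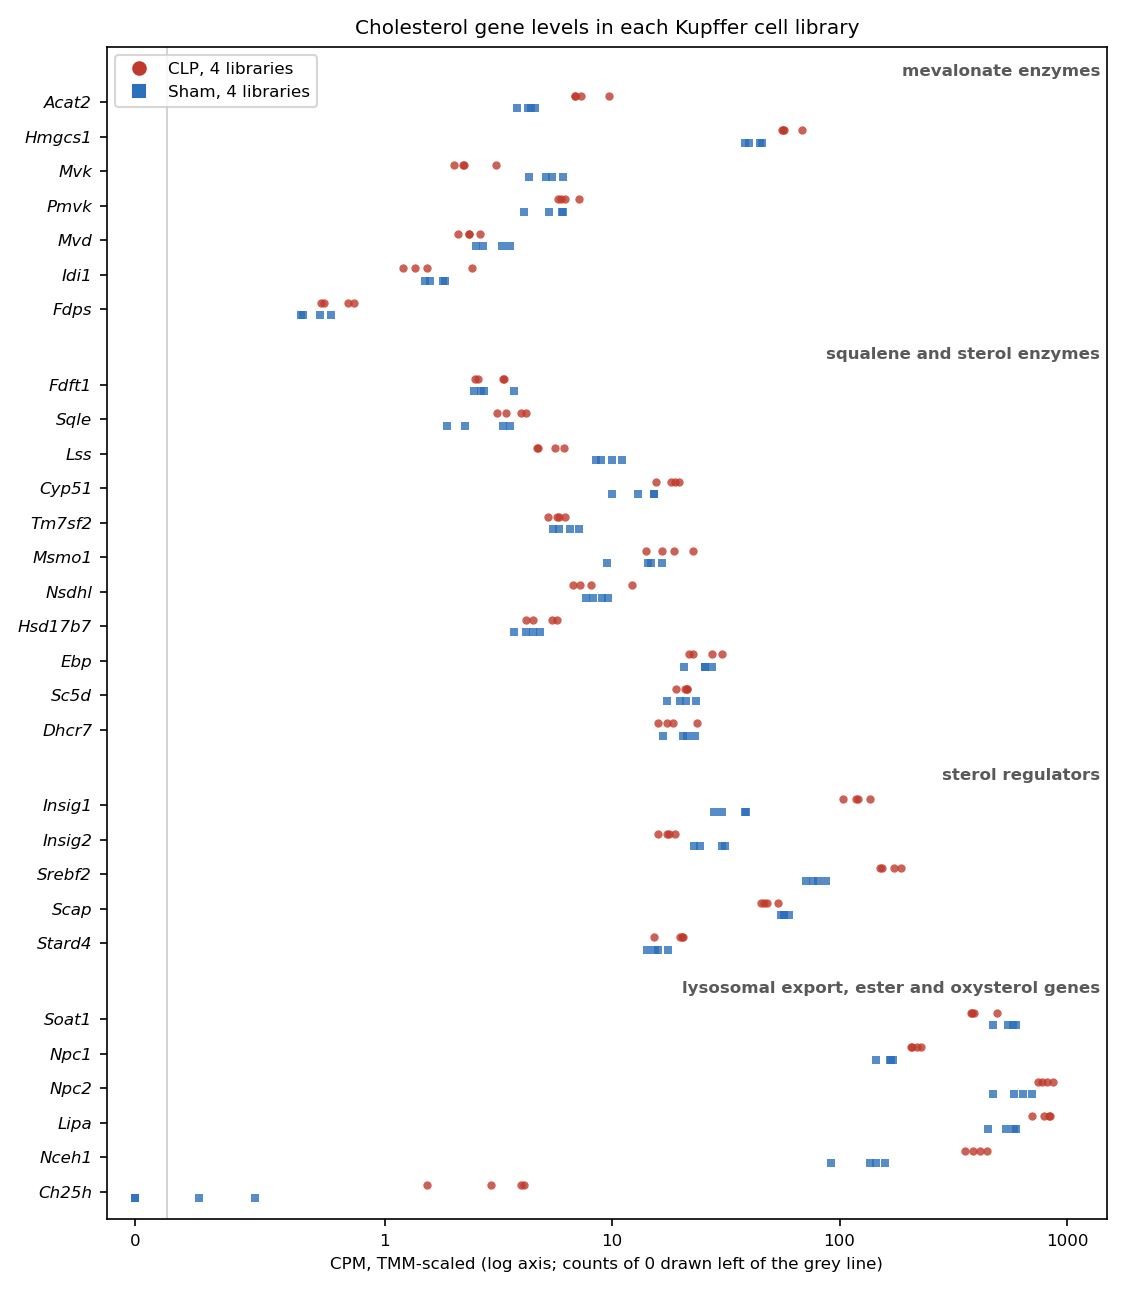
CPM (TMM-scaled, logarithmic axis, not divided by length) of each of the 29 genes in each library, with CLP circles drawn above Sham squares and counts of 0 drawn left of the grey line. Insig1, Srebf2, Nceh1, Ch25h, Acat2, Hmgcs1, Cyp51, Npc1, Npc2 and Lipa are fully separated to the right in CLP. Mvk, Lss, Insig2 and Scap are fully separated to the left, while 13 of the 18 enzymes overlap.

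Nceh1 (ENSMUSG00000027698), the neutral hydrolase of cholesterol esters in macrophages, had 355, 447, 387 and 414 CPM after CLP, against 158, 145, 91.7 and 136 CPM after Sham. Even the lowest CLP library lay far above the highest Sham library. Its log2 fold change was 1.60 ± 0.17 (edgeR adjusted p = 2.87e-05), a 3.03-fold rise. Soat1 (ENSMUSG00000026600), which runs the opposite reaction, was lower on average, at 491, 390, 380 and 383 CPM after CLP and 577, 553, 474 and 594 CPM after Sham. CLP replicate 1 overlapped the Sham range, and the other 3 CLP libraries lay under it. The log2 fold change was -0.42 ± 0.13 (edgeR adjusted p = 0.0177). That call was lost when CLP replicate 2, 3 or 4 or Sham replicate 1, 2 or 4 was left out (edgeR adjusted p = 0.0546 to 0.073), with log2 fold changes from -0.41 to -0.37. There were 0.723, 1.15, 1.02 and 1.08 Nceh1 reads per Soat1 read in CLP, against 0.273, 0.262, 0.193 and 0.228 in Sham. The means were 0.993 ± 0.187 in CLP libraries and 0.239 ± 0.0361 in Sham libraries (SD, n = 4 each), without overlap, and the ratios were not tested.

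The lysosomal genes rose by smaller amounts. Lipa (ENSMUSG00000024781) was at 842, 790, 703 and 834 CPM after CLP and 598, 588, 450 and 540 CPM after Sham, with a log2 fold change of 0.54 ± 0.13 (edgeR adjusted p = 0.00419). Npc2 (ENSMUSG00000021242), the soluble sterol carrier of the lysosome, was at 868, 779, 814 and 748 CPM after CLP and 639, 703, 473 and 586 CPM after Sham (0.42 ± 0.14, edgeR adjusted p = 0.024). Npc1 (ENSMUSG00000024413), the membrane protein that takes cholesterol over from Npc2, was at 209, 228, 206 and 220 CPM after CLP and 172, 167, 144 and 168 CPM after Sham (0.41 ± 0.10, edgeR adjusted p = 0.0063). For each of the 3 genes every CLP library was above every Sham library. With total-count scaling none of them passed, and their log2 fold changes were -0.01 for Lipa, -0.13 for Npc2 and -0.15 for Npc1. Npc2 also missed the threshold with upper-quartile scaling (edgeR adjusted p = 0.0569), with no count filter (0.0609) and without CLP replicate 3 (edgeR adjusted p = 0.0527) or Sham replicate 4 (0.0701). Relative to Soat1, Lipa stood at 1.71 to 2.18 reads per Soat1 read in CLP and 0.908 to 1.06 in Sham. Scaling cannot alter this ratio, but it does not tell a rise of Lipa from a fall of Soat1. Soat1 was itself called lower and was at -0.97 with total-count scaling.

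Ch25h (ENSMUSG00000050370), which hydroxylates cholesterol to a signalling oxysterol, had 37, 76, 89 and 60 reads in CLP replicates 1 to 4, against 0, 0, 8 and 5 reads in Sham replicates 1 to 4. It was thus near absent after sham surgery, and the groups did not overlap. The pooled 262 reads in CLP and 13 in Sham give a ratio of 30.2 after scaling. Counting error alone puts it between 17.4 and 57.5 (exact 95% interval), which leaves out the spread among libraries and is not a test. Since the filter kept it only for its CLP libraries, no test of it is given. Even in CLP it stayed low, at 1.54 to 4.08 CPM.

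The mevalonate enzymes did not move together. Hmgcs1 (ENSMUSG00000093930), which makes HMG-CoA, was the most abundant, with 57.0, 56.1, 68.2 and 56.3 CPM after CLP and 40.1, 44.8, 38.3 and 45.4 CPM after Sham. It rose without overlap (log2 fold change 0.50 ± 0.11, edgeR adjusted p = 0.00271), but with total-count scaling its value was -0.06. Acat2 (ENSMUSG00000023832), the thiolase of the first step, was at 6.87, 7.28, 9.71 and 6.88 CPM after CLP and 4.28, 3.81, 4.39 and 4.58 CPM after Sham (0.85 ± 0.17, edgeR adjusted p = 0.00174, or 0.29 and 0.176 with total-count scaling). Of the 50-base words of its longest transcript, 45.9% also occur in other genes, chiefly its near copy Acat3, so how reads were assigned to either gene is uncertain. Acat3 itself was at 15.1 ± 8.45 CPM after CLP and 5.58 ± 1.57 CPM after Sham (SD, n = 4 each).

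Mvk (ENSMUSG00000041939), mevalonate kinase, fell. It had 3.08, 2.20, 2.02 and 2.24 CPM after CLP, or 74, 42, 44 and 46 reads, against 5.13, 5.46, 4.33 and 6.08 CPM after Sham, or 168, 179, 129 and 199 reads. The log2 fold change was -1.13 ± 0.21 (edgeR adjusted p = 0.000929), or 0.456 times the Sham level. All CLP libraries were below all Sham libraries, and the call was kept in every alternative run. Hmgcs1, of the same segment, had 18.5 to 33.8 reads per Mvk read in CLP and 7.47 to 8.85 in Sham. Mmab, a mitochondrial enzyme of vitamin B12 metabolism that lies head to head with Mvk, also fell, at 3.66, 2.15, 2.38 and 1.66 CPM after CLP and 6.48, 6.64, 5.37 and 7.58 CPM after Sham (log2 fold change -1.40 ± 0.25, edgeR adjusted p = 0.000804). The 190 bases between the RefSeq bounds of the pair are shown because both genes start from them and both fell, at chr5:114444074-114444263 on GRCm38.p6, read towards Mvk on the plus strand. Capitals mark CCAAT on either strand, which reads ATTGG on the strand shown when it lies on the other.
Mvk and Mmab: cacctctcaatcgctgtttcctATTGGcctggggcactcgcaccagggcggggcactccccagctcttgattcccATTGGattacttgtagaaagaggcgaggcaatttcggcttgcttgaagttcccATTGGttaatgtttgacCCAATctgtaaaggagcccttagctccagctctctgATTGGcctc
The stretch holds 5 such words. A CCAAT word was found on either strand in the RefSeq windows (250 bases before to 50 after a start) of 21 of the 24 genes of the 29 that have one, against 41.1% of 27025 genes. Fdft1, Fdps, Npc1, Sqle and Stard4 have no entry. A match is a description only and does not show that a factor binds.

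The remaining mevalonate enzymes, Pmvk, Mvd, Idi1 and Fdps, which carry mevalonate phosphate to farnesyl diphosphate, did not pass. Their log2 fold changes were 0.22, -0.35, -0.04 and 0.34, and their groups overlapped. Fdps was represented by only 53 reads in CLP and 63 in Sham over 4 libraries each, and Idi1 by 141 and 215, and their 95% intervals were wide, -0.30 to 0.98 for Fdps and -0.64 to 0.56 for Idi1. For Idi1, 30.5% of the 50-base words of its transcript also occur in other genes, and for Fdps 11.7%. Fdps also shares 1124 exon bases, 26.7% of its own, on the same strand with the gene Gm43738, which had 1 read. How reads there were assigned is uncertain.

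The TCACNCCAC word was found in the window of 1 of the 24 genes, Hmgcs1, and in those of 1.44% of all 27025 genes. The 150 bases before its start, at chr13:119690201-119690350 on GRCm38.p6 (plus strand), are printed with that word and CCAAT in capitals, as Hmgcs1 is a textbook SREBP2 target.
Hmgcs1: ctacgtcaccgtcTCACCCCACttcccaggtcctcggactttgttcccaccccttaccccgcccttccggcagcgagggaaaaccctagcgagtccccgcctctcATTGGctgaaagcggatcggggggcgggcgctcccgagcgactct
The shorter core CACNCCA, which lies inside it, was found in 7 of the 24 genes, Insig1 among them, and in 20.6% of all genes. CACGTG was found in 6 of the 24 and in 8.09%.

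Downstream of farnesyl diphosphate, Cyp51 rose, Lss fell and the other 9 of 11 enzymes did not pass. Lss (ENSMUSG00000033105), lanosterol synthase, which closes the sterol rings, had 6.16, 5.60, 4.67 and 4.73 CPM after CLP, against 8.95, 11.1, 8.48 and 9.96 CPM after Sham. All CLP libraries were below all Sham libraries, and the log2 fold change of -0.86 ± 0.16 (edgeR adjusted p = 0.00105) kept its call in every alternative run. Cyp51 (ENSMUSG00000001467), which demethylates the lanosterol made by Lss, was at 15.5, 18.2, 18.8 and 19.6 CPM after CLP and 15.3, 15.3, 9.96 and 12.9 CPM after Sham. The groups only just did not overlap, with a log2 fold change of 0.43 ± 0.16 (edgeR adjusted p = 0.0364). It missed the threshold when CLP replicate 2, 3 or 4 or Sham replicate 3 or 4 was left out (edgeR adjusted p = 0.0719 to 0.0873), with upper-quartile scaling (0.0878) and with no count filter (0.0881), and its value was -0.11 with total-count scaling. Msmo1, which removes further methyl groups, was at 14.2, 16.5, 22.8 and 18.7 CPM after CLP and lay between 9.46 and 16.5 CPM after Sham, so the groups overlapped. It did not pass (0.39 ± 0.20, edgeR adjusted p = 0.118) except without CLP replicate 1 (0.49, edgeR adjusted p = 0.0438).

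The other enzymes after farnesyl diphosphate had log2 fold changes between -0.12 and 0.41, and their groups overlapped. They are the squalene synthase Fdft1 (0.02), the squalene epoxidase Sqle (0.41), the reductases Tm7sf2 (-0.12), Hsd17b7 (0.20) and Dhcr7 (-0.11), the dehydrogenase Nsdhl (-0.01), the isomerase Ebp (0.05) and the desaturase Sc5d (0.01). Over all 13 enzymes of synthesis that did not pass, the 95% intervals lay between -0.81 and 0.98, so no interval reached 1 in either direction on this scale, while smaller changes lay inside them. With total-count scaling Mvd, Tm7sf2, Nsdhl, Ebp, Sc5d and Dhcr7 passed as lower as well, giving 8 of 18 enzymes lower and 0 higher, against 56.6% of all genes lower and 11.7% higher on that scale. Fdft1 shares 774 exon bases with Ctsb on the opposite strand, a cathepsin gene with 1917051 reads, and 30.7% of the 50-base words of its transcript occur in other genes, chiefly Ctsb. The strand setting of the count is not given in the sources used here, so reads of the pair cannot be told apart. Tm7sf2 shares 532 exon bases, 12.1% of its own, with Vps51 on the same strand, so its count is uncertain there too. Nsdhl was highest in CLP replicate 1, at 12.2 CPM, with 6.76 to 8.10 CPM in the other CLP libraries and 7.68 to 9.57 CPM after Sham.

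Around these 29 genes, 5 lists of related genes with 49 entries were read in the same fit, and of 46 tested 9 rose and 12 fell. This is 45.7%, against 54.3% of all genes. With total-count scaling 4 were higher and 33 lower, against 11.7% of all genes higher and 56.6% lower on that scale. Among 12 genes of SREBP processing and sterol-regulated degradation 3 rose and 4 fell, or 58.3%, and with total-count scaling 0 were higher and 8 lower. Erlin2, which rose, was at -0.04 with total-count scaling. Among those that fell were the protease Mbtps1, which makes the first cut in SREBPs, at 58.3 ± 5.75 CPM after CLP and 82.2 ± 2.53 CPM after Sham (SD, n = 4 each, log2 fold change -0.50 ± 0.10, edgeR adjusted p = 0.00163), and Paqr3, a Golgi anchor of Scap (-1.001 ± 0.20, edgeR adjusted p = 0.00164). Srebf1, the gene of SREBP1, was at 76.3 to 103 CPM after CLP and 67.6 to 82.4 CPM after Sham. At a log2 fold change of 0.28 it missed the threshold (edgeR adjusted p = 0.0626), but it passed with DESeq2 (0.34, adjusted p = 0.0177), after GC correction (0.50, edgeR adjusted p = 0.00369) and without CLP replicate 2 (0.36, edgeR adjusted p = 0.0317), and it was at -0.27 with total-count scaling. Srebf2 reads per Srebf1 read were 1.61 to 2.03 in CLP and 0.967 to 1.13 in Sham.

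Of 10 neighbouring mevalonate and sterol genes tested, 4 fell and none rose by edgeR's test, or 40.0%, against 54.3% of all genes called and 29.5% lower. With total-count scaling all 10 were lower, against 56.6% of all genes lower and 11.7% higher on that scale. Besides Mmab they included the scaffold Erg28 (-0.88 ± 0.21) and Ggps1 (-0.31), named because the count is small. The Ggps1 call was lost with DESeq2 (adjusted p = 0.0865), after GC correction (edgeR adjusted p = 0.129) and when CLP replicate 2, 3 or 4 or Sham replicate 1, 2 or 4 was left out (edgeR adjusted p = 0.0532 to 0.129). All 10 genes had log2 fold changes below 0, so none was higher at an unadjusted p under 0.05 either, and DESeq2 likewise called 0 higher.

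Of 12 sterol transport and lipid droplet genes tested, 3 rose and 4 fell, or 58.3%, near the 54.3% of all genes. With total-count scaling 3 were higher and 8 lower, against 11.7% and 56.6% of all genes. Gramd1a and Gramd1b, which carry cholesterol from the plasma membrane to the endoplasmic reticulum, rose. Gramd1a was at 276, 526, 598 and 638 CPM after CLP and 125, 68.9, 99.3 and 49.6 CPM after Sham (log2 fold change 2.57 ± 0.33, edgeR adjusted p = 9.7e-05), and Gramd1b rose by 1.81 ± 0.24. For both, every CLP library was above every Sham library, and both kept their call and direction with total-count scaling, at 2.02 and 1.26. Of 3 oxysterol genes tested only Cyp7b1, which hydroxylates oxysterols further, passed (1.204 ± 0.41, edgeR adjusted p = 0.0274), and its groups overlapped. That call was lost with total-count scaling (edgeR adjusted p = 0.159), with no count filter (0.0998) and when CLP replicate 2 or 4 or Sham replicate 2, 3 or 4 was left out (0.0507 to 0.0902). The bile acid enzymes Hsd3b7 and Cyp27a1 had log2 fold changes of 0.23 and -0.05 and did not pass.

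Among 9 genes of fatty acid synthesis under SREBP1 2 rose and none fell by edgeR's test, or 22.2%, against 54.3% of all genes. Mid1ip1, a regulator of acetyl-CoA carboxylase, was at -0.43 with an unadjusted p of 0.0369. It passed as lower with upper-quartile scaling (edgeR adjusted p = 0.0252), with no count filter (0.0277), with the replicate block (0.0178) and without CLP replicate 1 (0.00708). With total-count scaling 1 of the 9 was higher and 6 lower, against 11.7% and 56.6% of all genes. DESeq2 called 0 of the 9 lower. Elovl6, an elongase, was at 7.28, 25.1, 34.7 and 30.1 CPM after CLP and 6.05, 5.39, 4.33 and 4.68 CPM after Sham (2.25 ± 0.39, edgeR adjusted p = 0.000698). Its CLP replicate 1 was close to the Sham libraries. Scd1, a desaturase, passed narrowly (0.54 ± 0.20, edgeR adjusted p = 0.0399) and was at -0.01 with total-count scaling. Its call was also lost with upper-quartile scaling (edgeR adjusted p = 0.0814) and when CLP replicate 2 or 3 or Sham replicate 1, 3 or 4 was left out (0.0723 to 0.0957).

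**Figure D4:**
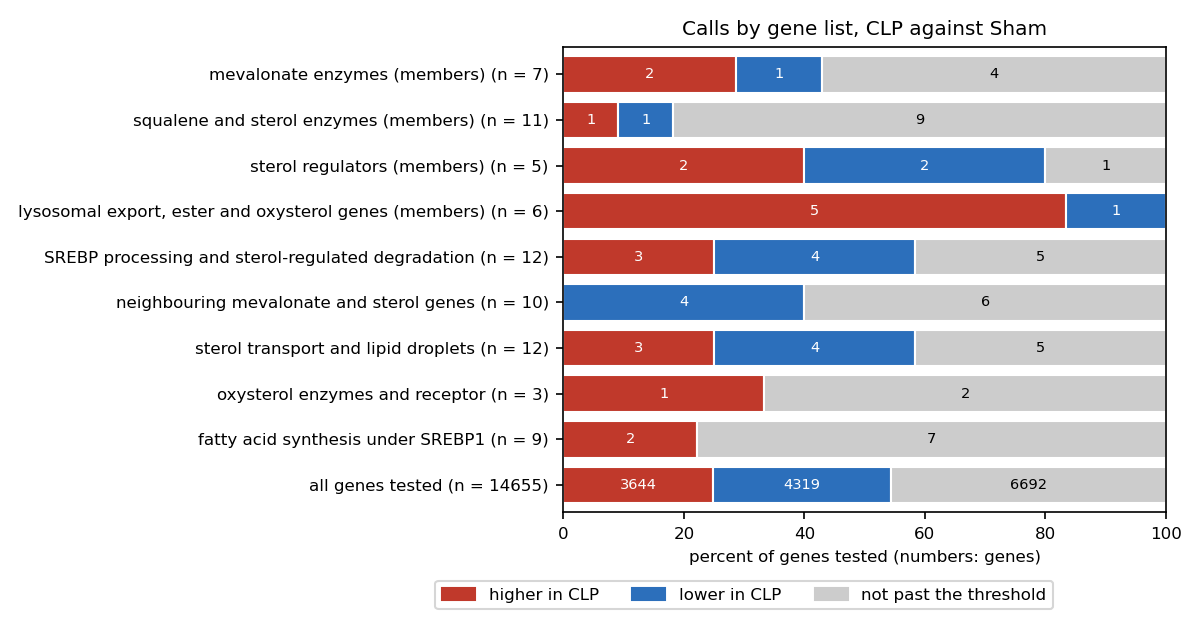
Percent of tested genes called higher (red), lower (blue) or not past the threshold (grey) in CLP against Sham for the 4 roles of the 29 genes, the 5 lists of related genes and all genes tested, with numbers of genes in the bars (Ch25h is counted in the lysosomal role). Squalene and sterol enzymes had 2 of 11 called, against 7963 of 14655 over all genes.

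Markers of some other cells moved with surgery too. All 6 neutrophil markers tested rose (their sum was 198 to 544 CPM after CLP and 82.4 to 120 CPM after Sham), as did all 5 platelet markers tested (118 to 192 CPM after CLP and 15.2 to 27.8 CPM after Sham). Ly6g and Camp of the neutrophil list were at 0 in every Sham library, and Gp1bb of the platelet list in all 8. Of 6 B cell markers 5 rose and 1 fell, with a sum of 19.3 to 30.8 CPM after CLP and 8.58 to 13.9 CPM after Sham. Several of these markers averaged under 1 CPM after Sham: 2 of the neutrophil, 2 of the platelet and 4 of the B cell markers tested. Any marker that passed the filter only through CLP libraries, as Ch25h did, had to differ. Such markers were not set apart in the marker counts given here. Hepatocyte markers summed to 2672 to 3466 CPM after CLP and 2137 to 2797 CPM after Sham, and of 8 tested 0 rose and 1 fell. Sinusoidal endothelial markers summed to 510 to 545 CPM after CLP and 476 to 577 CPM after Sham, and of 6 tested 2 rose and 0 fell. Of the stellate cell markers 1 of 5 rose. The monocyte markers summed to 223 to 364 CPM after CLP and 172 to 291 CPM after Sham, and of 3 tested 0 were called. Over all genes tested, 54.3% were called. Both erythroid markers tested rose, with sums of 8.20 to 15.0 CPM after CLP and 3.52 to 9.27 CPM after Sham. No T and NK cell marker passed the filter, with sums of at most 2.19 CPM after CLP and 0.792 CPM after Sham. The part of these cells in the changes of the 29 genes was not tested. Without CLP replicate 1, the library that stood apart, none of the 14 calls was lost and Msmo1 joined them.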

How the data were processed

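RNA of sorted Kupffer cells was sequenced in 8 libraries, 4 CLP and 4 Sham, with a stranded TruSeq kit, per the labels' protocols. The deposited table holds raw read counts per Ensembl gene. FastQC, STAR 2.7.10b, featureCounts, DESeq2 and mm39 are named in the submitters' processing notes, while neither annotation release nor strand setting is given there. Symbols, exon lengths and transcript GC came from GENCODE M21 and start regions from RefSeq, both on GRCm38. A symbol was found for 52081 IDs, and all 29 genes matched.

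Low counts were removed by edgeR's filterByExpr. The main test was the robust quasi-likelihood F-test of edgeR 4.0.16, run in R 4.3.3 with TMM scaling and a term for surgery. Adjustment of p-values was by Benjamini-Hochberg over 14655 genes. The SE is the absolute log2 fold change over the square root of F. Scripts were tested on simulated data. There edgeR called 9 of 50 planted 1.5-fold changes, 26 of 50 2-fold, 43 of 50 4-fold and 47 of 50 8-fold. Of its 134 calls there, 9 were false. Far fewer genes were changed there than were called in these data, so these rates need not hold here. DESeq2 1.42.0, limma voom 3.58.1, other scalings, no filter, a replicate block and each library left out were alternatives, and the GC correction was chosen after seeing the data.

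The genes and lists were chosen with earlier results of these data known. Each of the 29 genes is accounted for, and of each wider list the 3 tested genes with the smallest adjusted p are named, except some that are not reported here. Other genes named were chosen after their values were seen.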

Additional observations from a re-analysis of the deposited data

Results flagged for a closer look

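In 4 of the 58 groups of 4 libraries (29 genes in CLP and in Sham), one library stood apart from the other 3 by Dixon's test. Chance alone sets about 1 group in 20 apart in this way. CLP replicate 3 was high for Acat2, at 9.71 CPM with the other CLP libraries between 6.87 and 7.28 CPM, and for Hmgcs1, at 68.2 CPM with the others between 56.1 and 57.0 CPM. CLP replicate 2 was low for Stard4, at 15.3 CPM with the others between 19.98 and 20.48 CPM. CLP replicate 1 was high for Soat1, at 491 CPM with the others between 380 and 390 CPM. No Sham library stood apart in this way.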

How the results depend on the processing

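Counts over the 29 genes here include Ch25h, which passed the filter only through CLP libraries. Of the other 14 calls, those of Insig1, Insig2, Srebf2, Mvk, Lss and Nceh1, 6 in all, kept direction and threshold under every alternative run, while limma voom and the fit without robust estimation kept all 14. Total-count scaling gave 4 of the 29 genes higher and 11 lower, with 1715 genes higher and 8292 lower among all genes, and 17.1% of calls were then upward, against 45.8% with TMM. It turned the log2 fold changes of Hmgcs1 (-0.058), Cyp51 (-0.11), Npc1 (-0.15), Npc2 (-0.13) and Lipa (-0.006), and of the uncalled Pmvk (-0.32), Fdps (-0.21), Fdft1 (-0.54), Sqle (-0.13), Msmo1 (-0.16), Hsd17b7 (-0.35), Ebp (-0.51), Sc5d (-0.54) and Stard4 (-0.29), below 0. Other sign changes were all of uncalled genes near 0. They were Idi1 (0.026) and Nsdhl (0.054) with DESeq2, Nsdhl (0.042) with the GC correction, Fdft1 (-0.088), Ebp (-0.058) and Sc5d (-0.093) with upper-quartile scaling, and Fdft1 (-0.036), Ebp (-0.009) and Sc5d (-0.046) with no count filter. Leaving out each library gave 8 to 11 of the 29 genes higher and 3 to 5 lower, and ranges of -0.049 to 0.168 for Fdft1, -0.047 to 0.122 for Ebp, -0.287 to 0.086 for Idi1, -0.226 to 0.097 for Nsdhl and -0.059 to 0.092 for Sc5d. The cause of these shifts was not tested. Same-numbered CLP and Sham libraries correlated at 0.172, -0.125, 0.126 and -0.085 in their deviations and not each best with its own number. The labels do not say whether replicate numbers pair the libraries, and so few correlations cannot decide it. The fit with the replicate block called 13 of the 29 genes, Cyp51 (adjusted p = 0.0551) and Scap (0.0893) being lost, and 7794 of all genes. With the GC correction, 52.8% of calls over all genes were upward. Depth limits Fdps, Idi1 and Ch25h, with 116, 356 and 275 reads over 8 libraries.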

Other observations

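Among the related genes, chosen here after their values were seen, Soat2, the sterol esterifying enzyme best known from liver and gut epithelium, was at 5.91, 14.0, 21.5 and 27.6 CPM after CLP and 3.24, 3.63, 6.64 and 2.32 CPM after Sham, so CLP replicate 1 lay within the Sham range (log2 fold change 2.12 ± 0.45, edgeR adjusted p = 0.00248). The coat protein of lipid droplets Plin2 was at 100, 144, 181 and 150 CPM after CLP and 213, 234, 269 and 239 CPM after Sham, with no overlap (-0.73 ± 0.17, edgeR adjusted p = 0.00377). Gramd1c, another member of the sterol carrier family of Gramd1a and Gramd1b, was lower, at 2.30 to 4.145 CPM after CLP and 5.29 to 11.95 CPM after Sham.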
